A study of Mus musculus with 2 samples.

Results

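The 10 genes described here are the core of hepatic de novo lipogenesis: Slc25a1, Acly and Acss2, which deliver acetyl-CoA, Acaca and Acacb, which make malonyl-CoA, Fasn, which builds the fatty acid, Me1, which supplies NADPH, and Thrsp, Pnpla3 and Srebf1. They were chosen as a fixed list of fatty acid synthesis genes driven by SREBP-1c and ChREBP, and their probe sets were found by gene symbol or Entrez ID. This gave 23 of the 45101 probe sets on the array and 10 of the 18193 genes with a probe set of their own. Hepatic RNA came from 12-week-old male mice that ate chow and were fasted for 6 hr. All mice were homozygous for a floxed Lpcat3 allele (Lpcat3fl/fl). The control group, Flox/Flox, carried no Cre, and the L-Lpcat3 KO group (Lpcat3fl/fl Albumin-Cre) also carried the albumin-Cre transgene, which is active in hepatocytes and leaves Lpcat3 in place in the other cells of the liver. RNA of 5 mice was pooled for each genotype and each pool was hybridized to 1 Affymetrix mouse whole-genome array. There are no replicates, so the spread among mice is unknown for each ratio given below, and no test was possible. In whole liver, fewer cells of a type cannot be told apart from less RNA per cell. The presence of Cre and the loss of Lpcat3 also cannot be told apart.

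De novo lipogenesis turns surplus carbohydrate into fatty acids. Citrate leaves the mitochondrion and is cleaved to acetyl-CoA, which is carboxylated to malonyl-CoA and then condensed into palmitate at the expense of NADPH. In liver the genes of this route are controlled largely at transcription, by SREBP-1c in response to insulin and by ChREBP in response to glucose, and the sterol-sensing receptor LXR acts on Srebf1 and on several of the enzymes. SREBP-1c is made as a membrane-bound precursor in the endoplasmic reticulum and is active only after cleavage, so that the transcript of Srebf1 and the activity of its protein need not move together. Lpcat3, itself a target of LXR, places polyunsaturated chains into phospholipids of the same membranes.

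The promoter sequences below are shown because 3 of them hold letters of elements to which LXR or E-box factors such as ChREBP and SREBP bind, and 1 belongs to the gene with the highest ratio. RefSeq on GRCm38.p6 gave 13 transcription starts for the 10 genes, and the 250 bases before each start were searched on both strands for 5 motifs. The LXR element was searched as 2 copies of NGGTNA in the same orientation, 4 bases apart, and the carbohydrate response element as CACGNG and CNCGTG, 5 bases apart. The other motifs were the sterol regulatory element TCACNCCAC, the E-box CACGTG and the CCAAT box CCAAT, the binding sequence of NF-Y. An E-box can overlap a carbohydrate response element, since both searches accept CACGTG. Each sequence is written 5′ to 3′ on the strand of the gene and ends at the base before the start, and capitals mark the motif matches.
Fasn, chr11:120824548-120824797, minus strand: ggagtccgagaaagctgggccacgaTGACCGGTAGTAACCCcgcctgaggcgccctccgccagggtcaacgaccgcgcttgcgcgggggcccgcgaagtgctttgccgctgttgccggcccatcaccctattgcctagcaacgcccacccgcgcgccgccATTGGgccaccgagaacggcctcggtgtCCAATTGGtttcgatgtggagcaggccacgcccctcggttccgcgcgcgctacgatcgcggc
Srebf1, chr11:60210472-60210721, minus strand: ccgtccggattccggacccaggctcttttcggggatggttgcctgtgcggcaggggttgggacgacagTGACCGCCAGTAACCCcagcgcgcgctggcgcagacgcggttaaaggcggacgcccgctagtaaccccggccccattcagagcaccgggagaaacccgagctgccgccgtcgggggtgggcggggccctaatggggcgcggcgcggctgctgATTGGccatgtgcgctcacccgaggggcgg
Acss2, chr2:155517793-155518042, plus strand: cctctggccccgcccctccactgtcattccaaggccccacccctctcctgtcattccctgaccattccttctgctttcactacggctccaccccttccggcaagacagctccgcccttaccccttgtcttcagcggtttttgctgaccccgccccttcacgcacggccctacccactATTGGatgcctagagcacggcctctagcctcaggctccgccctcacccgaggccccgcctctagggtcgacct
Slc25a1, chr16:17928220-17928469, minus strand: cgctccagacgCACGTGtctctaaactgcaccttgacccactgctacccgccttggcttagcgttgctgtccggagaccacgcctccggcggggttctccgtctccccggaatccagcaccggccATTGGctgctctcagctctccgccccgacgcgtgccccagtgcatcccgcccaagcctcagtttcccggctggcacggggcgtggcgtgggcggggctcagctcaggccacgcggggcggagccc

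The Fasn and Srebf1 sequences were the 2 of 13 with a match to the LXR element, which 0.621% of all 32851 RefSeq starts contained. In Fasn the match ran from 225 to 210 bases before the start and read TGACCGGTAGTAACCC. In Srebf1 it ran from 182 to 167 bases before the start at position 60210471, the most downstream of the 3 listed, and read TGACCGCCAGTAACCC. Both matches lay on the strand opposite to the gene. The Slc25a1 sequence held the only E-box among the 13, against 6.02% of all starts. A CCAAT box was present before 9 of 13 starts, belonging to 8 genes, against 33.8% of all starts. Fasn had 3 such matches, of which 2 overlapped, and Thrsp had 2. The letters of the sterol regulatory element (1.05% of all starts) and of the carbohydrate response element (0.0396%) were in 0 of 13 windows, which says nothing of sites elsewhere in these genes. No motif was matched before the start of Acly, that of Acaca, 1 of the 2 starts of Me1 and 1 of the 3 of Srebf1. The start that the table lists for Acaca lies well inside the annotated gene, so its window need not be the main hepatic promoter. A match is a run of letters and not a measured binding site.

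**Figure D1:**
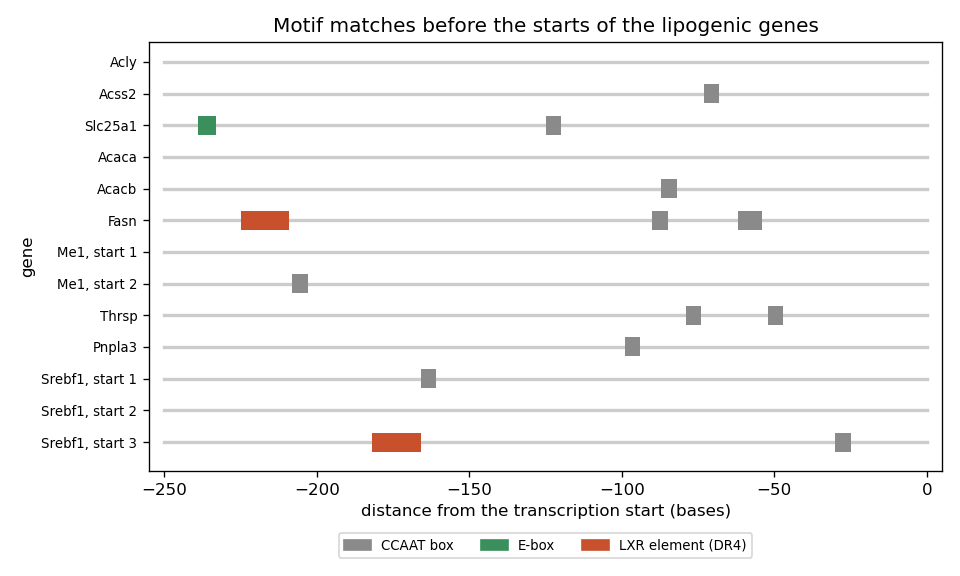
Motif matches in the 250 bases before each RefSeq start of the 10 genes, drawn as distance from the start in bases; several starts of a gene are numbered in the direction of transcription. The LXR element appears before Fasn and before the third start of Srebf1, the E-box before Slc25a1, and CCAAT boxes before 9 of the 13 starts.

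Signals are on the linear MAS5 scale, scaled before deposit to a common trimmed mean. A probe set was called measured where at least 1 array lay above a floor of 76.4, the median of all signals, and signals under the floor were raised to it for ratios. Of the 23 lipogenic probe sets, 15 lay above the floor in both pools, 3 in 1 pool and 5 in neither. Every one of the 10 genes was measured, as were 12077 of the 18193 genes in all. The deleted gene, Lpcat3, gave signals of 3310 in Flox/Flox and 1305 in the L-Lpcat3 KO pool. Its probe set was not placed relative to the deleted exon, so this is no direct check of the deletion. Liver identity was plain in both pools, with a summed signal of 277677 in Flox/Flox and 274697 in the L-Lpcat3 KO pool over 6 hepatocyte markers.

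Hepatic lipogenic transcripts differed little between the pools, and not all in 1 direction. By the brightest probe set of each gene, the L-Lpcat3 KO pool was higher for 6 of the 10 (5 with median centring, 7 when probe sets were averaged, and 7 when the less specific _s_at and _x_at sets were dropped) and lower for 4, with a median log2 ratio of 0.12 and a range from -0.22 (Pnpla3) to 0.38 (Acss2). Over all measured genes the median was 0.00 and 50.8% had a ratio above 0. None of the 10 genes was 1.5-fold apart, a size reached in either direction by 7.22% of measured genes. Acss2, Acacb and Me1 were at least 1.2-fold higher (3 of 10, against 15.6% of measured genes), and 0 of 10 were at least 1.2-fold lower (against 13.6%). With median centring Me1 was under this size, and by the mean of its probe sets Acss2 was, which leaves 2 genes in each case. Dim genes vary more: the SD of the log2 ratios was 0.32 over all measured genes and 0.21 over the bright ones. Of the 6817 genes above the 75th percentile of signals (387) on both arrays, 6.95% reached a 1.2-fold higher signal in L-Lpcat3 KO. A 1.2-fold lower signal was reached by 509 of the 6817, and only 1.48% were 1.5-fold apart in either direction. All lipogenic genes but Pnpla3 were in that range of signals. Of these 9, 3 were at least 1.2-fold higher, 0 were 1.2-fold lower and 0 were 1.5-fold apart. The median of those 9 was 0.16.

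**Figure D2:**
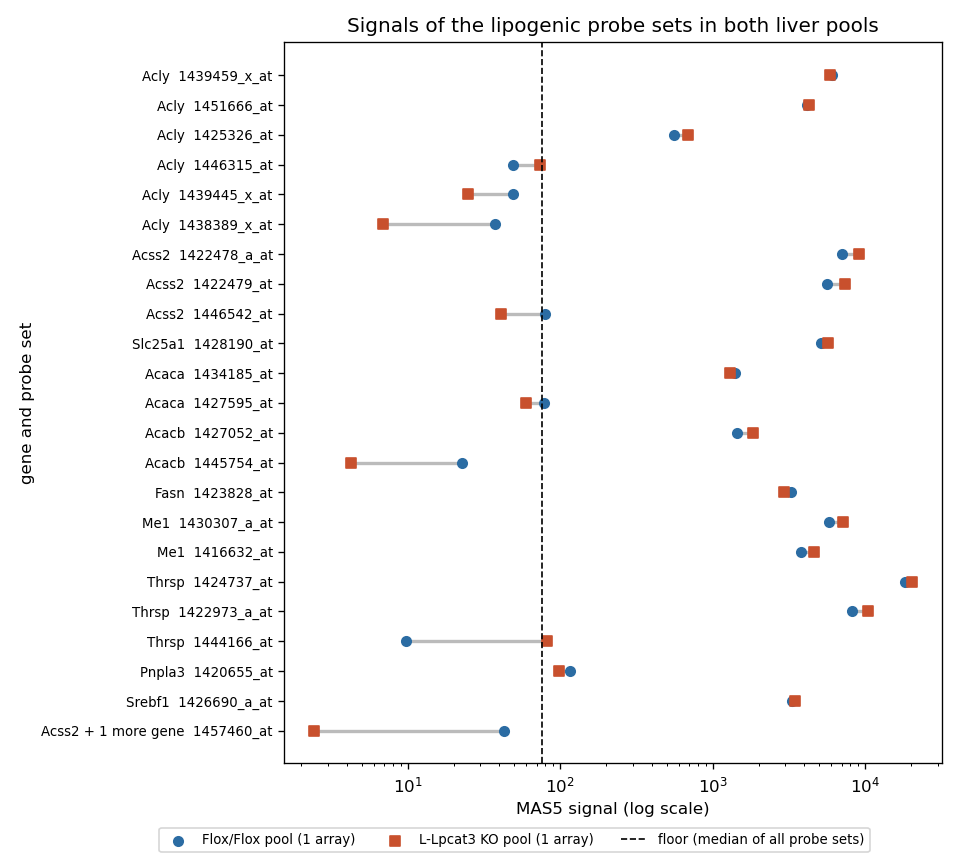
MAS5 signal (log axis) of each of the 23 probe sets in the Flox/Flox pool (circles) and the L-Lpcat3 KO pool (squares), 1 array each, with the floor of 76.4 dashed. The bright probe sets differed by at most 1.33-fold between the pools, and the wide gaps belong to probe sets at or under the floor.

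The genes that deliver cytosolic acetyl-CoA differed in their ratios. Acss2, the cytosolic enzyme that makes acetyl-CoA from acetate, had signals of 7025 in Flox/Flox and 9132 in the L-Lpcat3 KO pool on the brightest of its probe sets (1.30-fold, log2 ratio 0.38). A second Acss2 probe set read 5590 and 7417 (1.33-fold, log2 ratio 0.41). Both were higher in L-Lpcat3 KO by nearly the same amount. To show how large such a ratio is on these arrays, each was set among the 500 measured probe sets nearest in signal. The Acss2 ratios were above those of 97.6% and 98.4% of them. A dim Acss2 probe set read 79.0 and 40.7, and another, which also lists a further gene, read 43.0 and 2.44; neither gives a usable ratio.

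Acly, the ATP citrate lyase that cleaves cytosolic citrate, had signals of 6035 in Flox/Flox and 5882 in the L-Lpcat3 KO pool (log2 ratio -0.04). Its next probe set read 4177 and 4297 (log2 ratio 0.04, or -0.04 with median centring). These bright Acly probe sets placed the pools at nearly the same level. A dimmer one read 557 and 688 (1.23-fold, log2 ratio 0.30), inside the range of -0.39 to 0.44 that held the central ratios, from the 5th to the 95th percentile, of probe sets of like signal. The other 3 Acly probe sets were under the floor in both pools, with signals between 6.84 and 73.6. Slc25a1, the carrier that exports citrate from mitochondria, read 5102 and 5711 (1.12-fold, log2 ratio 0.16).

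The carboxylases, which commit acetyl-CoA to fatty acid synthesis, lay on opposite sides of equality. Acaca, the cytosolic isoform whose malonyl-CoA feeds Fasn, had signals of 1405 in Flox/Flox and 1290 in the L-Lpcat3 KO pool (1.09-fold lower, log2 ratio -0.12). Acacb, the isoform at the outer mitochondrial membrane whose malonyl-CoA restrains fatty acid import for oxidation, had signals of 1444 and 1838 (1.27-fold higher, log2 ratio 0.35). The Acacb ratio was above 96.8% of the 500 probe sets of like signal, and the Acaca ratio lay well within its range. Dim probe sets gave no more: one of Acaca read 78.8 and 59.4, and one of Acacb read 22.6 and 4.24.

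Fasn, the synthase that carries out all steps from malonyl-CoA to palmitate, was slightly lower in L-Lpcat3 KO, with signals of 3265 in Flox/Flox and 2915 in the L-Lpcat3 KO pool (1.12-fold lower, log2 ratio -0.16). Of the 500 probe sets of like signal, 12.6% had a lower ratio. Me1, the cytosolic malic enzyme that yields NADPH for the synthase, was higher in L-Lpcat3 KO on both of its probe sets. The brighter read 5821 and 7120 (1.22-fold, log2 ratio 0.29) and the other 3788 and 4649 (1.23-fold, log2 ratio 0.30). They stood above 96.8% and 96.6% of the probe sets of like signal.

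Thrsp, also known as Spot 14, is a small nuclear and cytosolic protein that is induced with the lipogenic enzymes. Its brightest probe set read 18145 in Flox/Flox and 20318 in the L-Lpcat3 KO pool (1.12-fold, log2 ratio 0.16), and the next read 8171 and 10422 (1.28-fold, log2 ratio 0.35). Both were higher in L-Lpcat3 KO, but by different amounts, and only the second passed the 95th percentile of its neighbours, at 97.4% against 94.2%. A dim Thrsp probe set was under the floor in Flox/Flox (9.75) and just above it in L-Lpcat3 KO (81.6), at least 1.07-fold higher.

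Pnpla3, a lipid droplet protein with lipase activity that responds strongly to feeding, was close to the floor in these fasted livers, at 115 in Flox/Flox and 98.7 in the L-Lpcat3 KO pool. Its log2 ratio of -0.22 was the lowest of the 10, yet the 5th to 95th percentile of probe sets of this signal ran from -0.83 to 0.92. Srebf1, which encodes SREBP-1a and SREBP-1c from alternative first exons, read 3295 and 3468 (1.05-fold, log2 ratio 0.07, or -0.01 with median centring of the arrays). Its single probe set was not assigned to either isoform here. By these single values, the transcript of the regulator differed less between the pools than those of Acss2, Acacb or Me1.

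**Figure D3:**
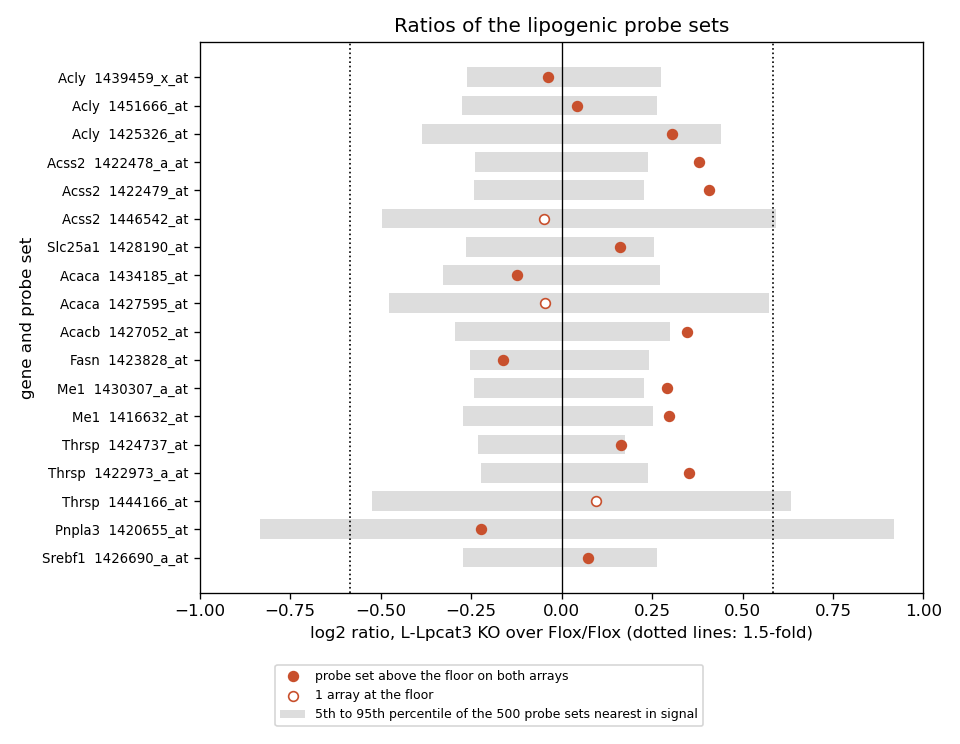
Log2 ratio (L-Lpcat3 KO pool over control pool) for the 18 measured probe sets, with grey bars from the 5th to the 95th percentile of the 500 probe sets nearest in signal; open points had 1 array at the floor and dotted lines mark 1.5-fold. The 6 filled points beyond their bars, of Acss2 (2), Me1 (2), Acacb and Thrsp, all lie to the right.

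Among the 18 measured probe sets, 12 had a ratio above 0 and 6 below, with a median of 0.13. The 6 that passed the 95th percentile of their neighbours belonged to 4 genes, Acss2, Me1, Acacb and Thrsp, against 5.1% of all measured probe sets. Probe sets of 1 gene read the same RNA from the same pools, so their count is not a count of independent observations. Their agreement does show how far probe choice moves a value. Over 2140 genes with 2 probe sets above a signal of 387 in both pools, the ratios of the 2 brightest differed by a median of 0.14 on the log2 scale and had the same sign in 55.6% of genes. The difference was 0.030 for Acss2, smaller in 11.2% of genes, and 0.0049 for Me1, smaller in 1.92%. It was 0.078 for Acly and 0.19 for Thrsp. All 10 gene ratios, from the brightest probe sets, were smaller in size than 0.40, the 90th percentile of this difference between probe sets. The second Acss2 probe set had 0.41, and Pnpla3 was dimmer than the genes that gave this percentile. A difference between the ratios of 2 probe sets is not a ratio between pools, so these are unlike measures.

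Genes around the core route were read from 9 lists, described by counts and medians. Of the regulators of SREBP-1c and ChREBP, 14 of 15 were measured, 8 above and 6 below 0. Their median log2 ratio was 0.04, and none was 1.5-fold apart by its brightest probe set. Mlxipl, which encodes ChREBP, read 6543 in Flox/Flox and 5918 in the L-Lpcat3 KO pool (log2 ratio -0.15). Insig1, which holds the SREBP precursor in the endoplasmic reticulum, had a log2 ratio of 0.05. Over the list the ratios ran from -0.41 to 0.55. The highest was that of a relative of Insig1, Insig2, which was picked out after its values were seen and read 2932 and 4293 (1.46-fold, log2 ratio 0.55). On its further probe sets the log2 ratios were 0.70 and 0.27.

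By the brightest probe set of each gene, the lists closest to the enzymes lay within 1.5-fold throughout. All 11 partners and direct controls of acetyl-CoA carboxylase were measured, 7 above and 4 below 0 (median 0.11). They include Prkaa2, a catalytic subunit of the AMP-activated kinase that inhibits the carboxylases. The log2 ratio of Prkaa2 was -0.09 by its brightest probe set, and -0.01 and -0.57 by the others. Cpt1a, the fatty acid importer that malonyl-CoA inhibits, had 0.12 by its brightest probe set, and -0.17 and -0.12 by the others. Stk11, picked out after its values were seen, had -0.16 by its brightest probe set and 0.76 by another, which is past 1.5-fold. For sugar and pyruvate supply, 11 of 14 genes were measured, 9 above and 2 below 0 (median 0.07), with the glucose transporter Slc2a2 at 0.13 and the pyruvate carrier Mpc1 at 0.06. Each of these lists thus sat near equality. For NADPH supply, 4 of 7 were measured, 2 above and 2 below 0 (median -0.05), but the direction of its brightest genes turned on the probe set. Tkt of the pentose phosphate pathway had -0.22 by its brightest probe set and 0.13 and 0.11 by the others, and the isocitrate dehydrogenase Idh1 had 0.08 and -0.04. Of 6 measured paralogs of the lipogenic genes among 10, 4 were above and 2 below 0 (median 0.13). The triglyceride lipase Pnpla2 had a log2 ratio of 0.17. The carrier Slc25a10 had -0.06 by its brightest probe set and 0.55 by another. The other malic enzymes Me2 and Me3 and the mitochondrial Acss1 were under the floor in both pools.

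Downstream of Fasn, all 10 genes of elongation and desaturation were measured, 7 above and 3 below 0 (median 0.08). Scd1, the desaturase that makes oleate, read 40203 in Flox/Flox and 39613 in the L-Lpcat3 KO pool (log2 ratio -0.02, and 0.06 by its other probe set). Elovl5, which elongates polyunsaturated fatty acids, read 13420 and 19793 (1.47-fold, log2 ratio 0.56), and 0.58 was the log2 ratio on its second probe set. Scd1 was thus near equality while Elovl5 came close to the 1.5-fold size.

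Among the 9 lists, the widest ratios were those of 13 other targets of SREBP-1c, ChREBP or LXR, all measured, 10 above and 3 below 0 (median 0.18). The list holds the deleted gene Lpcat3. It was also chosen with earlier results known, and the paper had reported Pltp and Txnip as induced on chow, so its width is partly built in. Pltp, the phospholipid transfer protein, read 2755 in Flox/Flox and 6409 in the L-Lpcat3 KO pool (log2 ratio 1.22, and 0.69 by its other probe set). Cidec, a lipid droplet protein, read 49.1 and 164, at least 2.15-fold higher. Txnip, a glucose-induced target of ChREBP, read 1536 and 2726 (log2 ratio 0.83). These 3 genes and Arrdc4 were the 4 of the list that were at least 1.5-fold higher, against 489 of all 12077 measured genes. Arrdc4 had a log2 ratio of 0.63, but -0.48 by its other probe set, and was picked out after its values were seen. Lpcat3 itself, at a log2 ratio of -1.34, was the only gene of the list that was 1.5-fold lower. Without Lpcat3 the median of the other 12 was 0.22, with 10 above and 2 below 0. Their ratios ran from -0.31 (Abca1) to 1.22 (Pltp). Abca1, picked out after its values were seen, read 11556 and 9302, and had -0.05 by its other probe set. The brightest of the list, Lpin1 (0.12) and Dgat2 (0.03), which act in triglyceride synthesis, were close to equality.

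Of 10 genes of insulin signalling, 9 were measured, 6 above and 3 below 0 (median 0.08). The insulin receptor substrates lay on opposite sides, with Irs1 at 956 in Flox/Flox and 1476 in the L-Lpcat3 KO pool (1.54-fold higher) and Irs2 at 164 and 104 (1.58-fold lower). Irs2 was dim, and dim probe sets vary widely in ratio. At the somewhat lower signal of Pnpla3, the 5th to 95th percentile of log2 ratios ran from -0.83 to 0.92. Igfbp1, which insulin represses, had a log2 ratio of -0.18, and the receptor Insr had 0.13 with another probe set at -1.11. Of 13 targets of SREBP-2, which drives cholesterol synthesis, 10 were measured and all 10 had a ratio above 0 by the brightest probe set (against 50.8% of measured genes), with a median of 0.22 and a range from 0.08 to 0.61. Lss, the lanosterol synthase, was the one past 1.5-fold (1.53-fold), with 0.53 and -0.23 on the log2 scale by its further probe sets. Idi1, picked out after its values were seen, also had a probe set below 0 (-0.10). Hmgcs1 had a log2 ratio of 0.25 and Sc5d 0.10. Taken once each and without Lpcat3, the 83 measured genes of the 9 lists had 60 ratios above 0 (against 50.8% of measured genes), 6 that were 1.5-fold or more higher and 1 that was as much lower, with a median of 0.10. The 7 past 1.5-fold were 8.43% of them, against 7.22% of all measured genes, a share that includes dim genes. Among all genes above the 75th percentile of signals on both arrays, 1.48% were 1.5-fold apart. Of the 7, Pltp, Txnip, Irs1 and Lss were in that range of signals, and Cidec, Arrdc4 and Irs2 were not. The share at like signal was not worked out for the 83 genes. Some listed genes were not analysed here.

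**Figure D4:**
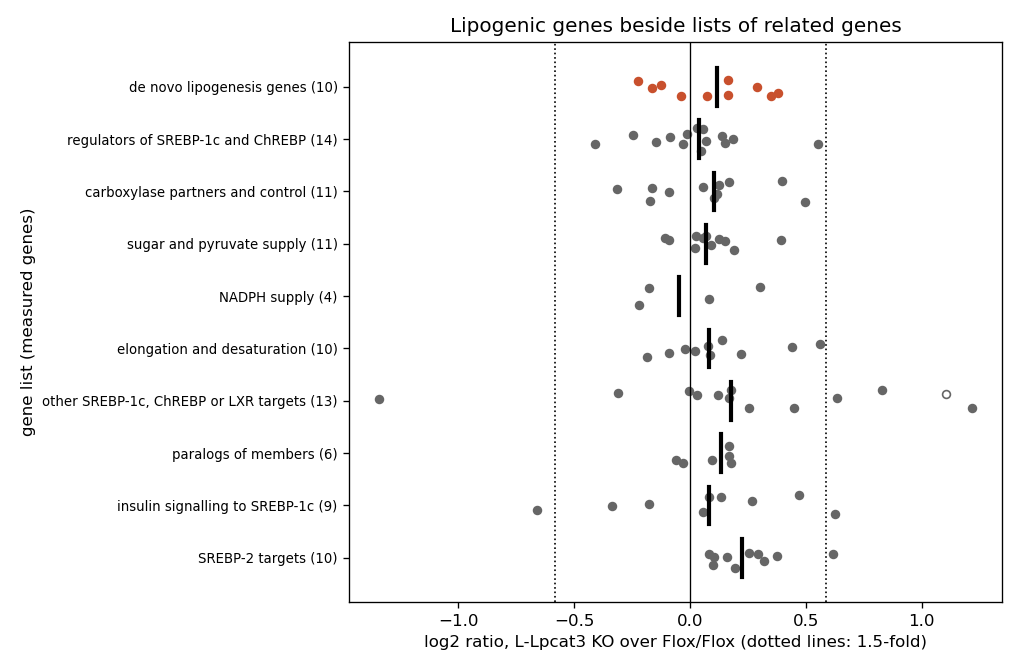
Log2 ratio (L-Lpcat3 KO pool over control pool) for the measured genes of the 10-gene lipogenic list (top) and of 9 lists of related genes, with list medians as black bars, dotted lines at 1.5-fold and an open point for a gene with 1 array at the floor. The lipogenic genes all lie between -0.22 and 0.38, and the points past 1.5-fold are mostly those of the other SREBP-1c, ChREBP or LXR targets.

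Several lipogenic genes are also strongly expressed by adipocytes, and markers of other cells were read beside them. Of 7 adipocyte markers, 4 were analysed here and 2 of them were measured. These were Fabp4 (644 in Flox/Flox and 776 in the L-Lpcat3 KO pool) and Retn (82.9 and 23.4). The Fabp4 direction depended on the probe set, with log2 ratios of 0.27 by the brightest and -0.61 and -0.16 by the others. The defining markers Adipoq (61.8 and 9.21) and Lep (4.17 and 2.91) were under the floor in both pools. These 2 were thus at background, and Fabp4, the brighter marker, is also made by endothelial cells and macrophages. The 6 hepatocyte markers had a median log2 ratio of -0.02. All 9 Kupffer cell and macrophage markers were below 0, against 5945 of all 12077 measured genes. Their median was -0.26 and their summed signal was 10401 in Flox/Flox and 9142 in the L-Lpcat3 KO pool. Some were dim, among them Marco (183 and 172), Timd4 (194 and 133) and Cd68 (270 and 206). Of 6 endothelial markers, 4 were above 0, with a median of 0.22 and sums of 5011 and 5800. The measured stellate (5), lymphocyte (2) and neutrophil (5) markers had medians of 0.03, -0.08 and -0.12. The neutrophil marker Mpo was 1.55-fold lower but close to the floor, at 124 in Flox/Flox and 80.1 in the L-Lpcat3 KO pool. Its log2 ratio of -0.63 lay within the range of -0.83 to 0.92 given above for Pnpla3, at like signal. The other measured neutrophil markers had 1 array at the floor. The 3 measured bile duct markers did not share a direction. Sox9, the only one above the floor in both pools, read 162 and 77.6 (log2 ratio -1.06, and -0.44 by its other probe set), while Epcam and Krt7, at the floor in Flox/Flox, were at least 1.68-fold and 1.32-fold higher, and the list median was 0.40. The part of these differences in the lipogenic ratios was not tested.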

How the data were processed

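Total liver RNA of 2 pools, 5 mice per genotype, was hybridized to Affymetrix mouse arrays. The authors deposited signal intensities on a linear scale, 1 per probe set and array, made with MAS5 per the submitters' processing notes; no version is stated for it in the sources used. The files name no genome build. Probe sets were named from the annotation of the array platform, its symbols brought up to date by gene ID, and 34945 had 1 symbol. Log2 ratios are L-Lpcat3 KO minus Flox/Flox, with no further scaling. The value of a gene is that of its brightest probe set. With 1 array per genotype no p-value or standard error exists, and the number of arrays limits the precision. The named genes are the 10 members, Lpcat3 and, from each list, up to 4 genes at least 1.5-fold apart and the 2 brightest. The members and lists were chosen with earlier results of these data known. Alternatives to the scaling, the floor and the choice of probe set were run. The scripts were tested on simulated data. Python 3.11.15 ran matplotlib 3.10.9, statsmodels 0.14.6, pandas 2.3.3, scipy 1.17.1 and numpy 2.4.6.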

Additional observations from a re-analysis of the deposited data

How the results depend on the processing

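Quantile normalization, loess, median centring, other floors (the 25th or 75th percentile, or none), a pseudocount of 50, and other probe set summaries were tried. The median of the lipogenic genes stayed above 0 throughout, from 0.04 with median centring to 0.30 with the second brightest probe set, which exists for 5 genes only. Without Pnpla3, an alternative chosen after seeing the data, it was 0.16. No alternative placed any lipogenic gene 1.5-fold apart. With median centring, 5 genes were above 0 and 2 (without Me1) were at least 1.2-fold higher. Centring lowers the ratios of all genes well above the floor by the same 0.079. The shares of all measured genes given above, 50.8% above 0 and 15.6% at least 1.2-fold higher, are without this shift. The mean of the probe sets gave 7 and 2 (without Acss2), and leaving out probe sets ending in _s_at or _x_at gave 7 and 3. With median centring Srebf1 became -0.01 and the second Acly probe set -0.04. Dim probe sets moved most: without a floor, the dim Thrsp probe set reached 3.06 and the dim Acss2 probe set -0.96. No replicate could be left out. No paired analysis was possible because each genotype is 1 pooled array.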
